A study of Mus musculus with 3 samples.

Results

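The solute carrier genes, taken as every gene whose symbol starts with Slc and a number, without Slc4a4, were followed through the splicing tables of RNA-Seq of the mouse hippocampus. They had 116 of 8727 splicing events and were 74 of 4860 genes. Of the events, 93 were skipped exons, 9 were alternative 5' splice sites, 9 were alternative 3' splice sites, 3 were pairs of mutually exclusive exons and 2 were retained introns. By symbol, 2 members are no transporters: Slc7a6os lies on the opposite strand of Slc7a6, and Slc9a3r2 encodes a scaffold protein (NHERF2) that binds a sodium-proton exchanger.

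The study put 300 or 10 CTG repeats, the expansion behind myotonic dystrophy type 1 (DM1), into CA1 of wild-type male C57BL/6J mice. The carrier was an adeno-associated virus (AAV9) that expressed the repeat in the 3' end of Egfp mRNA. CWG-cPIP, a cyclic pyrrole-imidazole polyamide that binds CAG and CTG repeat DNA, was given together with the virus. The groups were CUG300 + CWG-cPIP, CUG300 + vehicle and CUG10 + vehicle, each 1 mouse 10 weeks old, so no value has a replicate. All 3 mice therefore carry an AAV9 repeat vector, and the whole hippocampus was taken, with transduced and untransduced cells together.

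Solute carriers are membrane proteins that move amino acids, neurotransmitters, ions, metals, nucleotides and vitamins across the plasma membrane or into organelles. In the hippocampus, carriers of the SLC17 family load glutamate into synaptic vesicles, carriers of the SLC6 family take up transmitters and creatine, and exchangers of the SLC8 and SLC24 families extrude calcium. Several carry small alternative exons in cytosolic loops, and the SLC25 family serves the inner mitochondrial membrane.

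For each event the files hold reads that support inclusion of the alternative region and reads that support its skipping, counted on junctions and inside the region. PSI is the inclusion share after each count is divided by the length of its form, from 0 (always skipped) to 1 (always included). An event is listed for a pair of libraries only where the pair had at least 1 read of each form, so exons included by every read are not seen. Solute carrier events had 6023 counts in CUG300 + CWG-cPIP (1.07% of 560672), 3687 in CUG300 + vehicle (0.649% of 567697) and 5777 in CUG10 + vehicle (0.948% of 609546), over events with counts in all 3 libraries. The median solute carrier event had 19, 6 and 14 counts in these libraries, against 24, 13 and 22 for all events. Intervals are 95% intervals and cover counting error only, except those of medians over genes, which cover the spread between genes. Neither these intervals nor any test on the counts of single libraries says how mice of a group vary.

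The CUG300 + vehicle library stood apart in cell type markers, measured by the same event counts and scaled to the total of each library (counts per 1000000, CPM). Choroid plexus markers (3 of 8 measured) summed to 721 CPM in CUG300 + CWG-cPIP, 71292 in CUG300 + vehicle and 783 in CUG10 + vehicle, of which Ttr alone gave 112, 67703 and 171 CPM. Microglia and immune markers (6 of 14) summed to 1587, 8845 and 1230 CPM in the same order, and neuron markers (7 of 10) to 12160, 3951 and 11262 CPM. Astrocyte markers (2 of 7) summed to 1234, 1450 and 648 CPM, a sum set by Gfap, which was higher in CUG300 + vehicle than in CUG10 + vehicle while Fgfr3 was lower. In the same order, oligodendrocyte markers (4 of 9) summed to 9763, 7317 and 8770 CPM, and endothelial and mural markers (2 of 7) to 55.3, 29.9 and 47.6 CPM. A marker counts as measured only where its events had counts in all 3 libraries, so none can be at 0 here. The labelled hippocampus had its neuron markers, Snap25 at 6392, 1825 and 6342 CPM. Fewer cells of a type and less RNA per cell cannot be told apart in such tissue.

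Several small exons of the calcium exchangers were among the listed events. Slc8a1, Slc8a2 and Slc8a3 encode the sodium-calcium exchangers NCX1, NCX2 and NCX3, and each has an 18-nt coding exon. They are shown because the exons are of the same length in paralogous genes, and those of Slc8a2 and Slc8a3 differed widely in PSI. Capitals mark the positions with the same base in all 3 genes. The exons lie at chr17:81441773-81441790 (minus strand), chr7:16150574-16150591 (plus strand) and chr12:81209454-81209471 (minus strand) of mm10, and all sequences are from GENCODE M21 transcripts. The Slc8a1 exon was a flanking exon of listed events, not an alternative one, and is given for comparison.
Slc8a1: gtggctTcacattaacAG
Slc8a2: ctctgcTactcaaccaAG
Slc8a3: cgctccTgttatctccAG

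Only 3 of 18 positions were equal in all 3 exons, while the Slc8a2 and Slc8a3 exons shared 9 of 18. Slc8a1 also has a 21-nt exon (chr17:81442203-81442223) and a 15-nt exon (chr17:81441652-81441666) that are cassette exons of the same cytosolic loop. They are shown, with the 24-nt exon of Slc38a10 (chr11:120108467-120108490, minus strand), as further listed cassette exons of at most 24 nt. A 24-nt coding exon of Slc22a23 was listed too and is not shown.
Slc8a1 21-nt exon: ccctgttgttgaatgagcttg
Slc8a1 15-nt exon: gaaaagagatgtatg
Slc38a10 24-nt exon: ctgaaattaaaaagctagtagcag

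Of the 93 skipped exons, 81 (87.1%) were coding in the annotation, 5 were partly coding, 6 were not coding and 1, the 104-nt exon of Slc8a1, was not annotated. Among all 6532 skipped exons 82.6% were coding. A length divisible by 3 was found for 41 solute carrier exons (44.1%), against 48.1% of all. Their median length was 108 nt (range 15 to 853 nt), against 105 nt for all, and 16 (17.2%) were at most 51 nt long, against 12% of all.

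Counts in all 3 libraries were present for 99 events of 66 genes, and 25 events of 22 genes had at least 20 counts in each library. The remaining 17 events, among them all events of 8 genes, lacked counts in 1 library. Most solute carrier events were near complete inclusion. All 25 deeper events had a PSI above 0.7 in each library, and 23 of them (92%) had at most 5 skipping reads over the 3 libraries, against 66.5% of the 2833 events of that depth in the series. Over the 99 events, 53 (53.5%) rested on at most 1 skipping read, against 40% of all events. A PSI below 0.5 in each library was found for 14 events.

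The deepest events show how little skipping there was. Slc25a3, the mitochondrial phosphate carrier, had a 173-nt exon with 1073 inclusion and 0 skipping reads in CUG300 + CWG-cPIP, 1515 and 2 in CUG300 + vehicle, and 1493 and 0 in CUG10 + vehicle. Slc17a7, the vesicular glutamate transporter VGLUT1, had a 128-nt coding exon with 680 and 0, 270 and 2, and 885 and 0 reads in the same order. Slc22a17, a receptor of lipocalin 2, had a 166-nt coding exon with 550 and 1, 280 and 0, and 460 and 1 reads. All 3 exons were at a PSI of 0.98 or above in each library.

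CUG300 + vehicle was set against CUG10 + vehicle to ask what the long repeat changes in splicing. No solute carrier event passed in this pair. By the interval rule (at least 20 counts in each library, an absolute PSI difference above 0.15 and an interval that excludes 0), 0 of 18 events were called, against 2.93% of 2526 events of that depth. By Fisher's exact test, two-sided, with Benjamini-Hochberg adjustment within event type and the same size threshold, 0 of 77 were called, against 0.160% of 6263 events, and 0 of 77 had an unadjusted exact p below 0.05, against 2.75%. PSI was higher in CUG300 + vehicle for 9 of the 18 events and lower for 8, with a median absolute difference of 0.098, against 0.041 for all events of that depth. The interval of a difference reached a median of 0.267 to either side, averaged over both sides, with a range of 0.010 to 0.520. Differences below 0.267 were therefore not detectable at many of these events. At any size, 1 of 18 intervals excluded 0, against 5.3% of the 2526 events, and it was that of the 128-nt Slc17a7 exon above, at a PSI of 0.980 in CUG300 + vehicle and 1.000 in CUG10 + vehicle.

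CUG300 + CWG-cPIP was set against CUG300 + vehicle to ask what the polyamide changes in the presence of the expansion. Here too no solute carrier event passed, with 0 of 19 events called by the interval rule, against 4.22% of 2514. By the exact test 0 of 81 were called, against 0.389% of 6679, and 0 of 81 had an unadjusted exact p below 0.05, against 3.58%. PSI was higher in CUG300 + CWG-cPIP for 9 of the 19 events and lower for 10, with a median absolute difference of 0.048, against 0.043 for all events. The interval reached a median of 0.209 to either side.

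CUG300 + CWG-cPIP was also set against CUG10 + vehicle, to ask what remains different under treatment, in a comparison that shares a library with each of the others. It gave 1 called event of 31 by the interval rule, against 2.42% of 3096 events. By the exact test 0 of 88 were called, against 0.115% of 6983, and 2 of 88 had an unadjusted exact p below 0.05, against 2.25%. PSI was higher in CUG300 + CWG-cPIP for 17 of the 31 events and lower for 13, with a median absolute difference of 0.064, against 0.047 for all events.

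**Figure D1:**
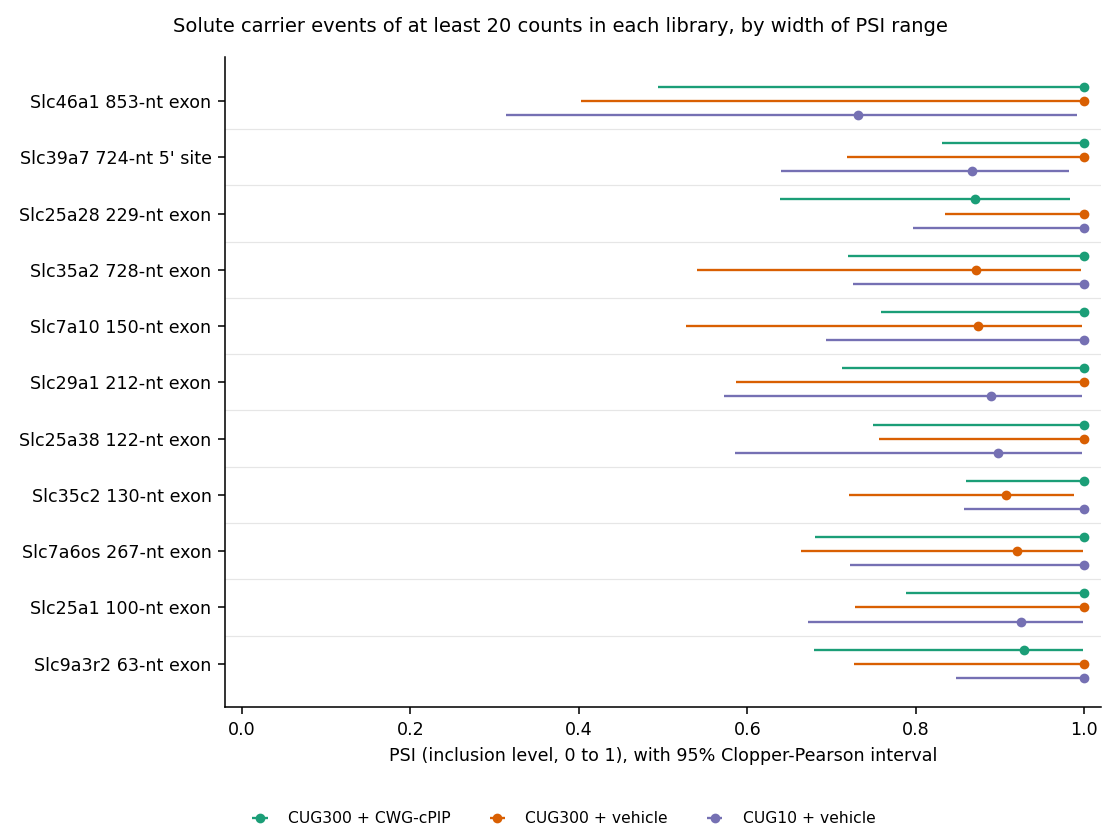
PSI (x axis, 0 to 1) of 11 solute carrier events, 1 per gene, of wide PSI range among those with at least 20 counts in each library (y axis, gene and length of the alternative part). Points are single mice in CUG300 + CWG-cPIP, CUG300 + vehicle and CUG10 + vehicle, lines are 95% Clopper-Pearson intervals, and nearly all points sit at or near 1, with Slc46a1 at 0.731 in CUG10 + vehicle as the lowest.

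The 11 events plotted each had at most 2 skipping reads in a single library. The 853-nt exon of Slc46a1, the proton-coupled folate transporter, had a PSI of 1.000 in CUG300 + CWG-cPIP and CUG300 + vehicle, against 0.731 (0.313 to 0.991) in CUG10 + vehicle, where a single read skipped it. The long form at a 5' splice site of Slc39a7 (ZIP7, which releases zinc from the endoplasmic reticulum) had a PSI of 1.000, 1.000 and 0.867 in CUG300 + CWG-cPIP, CUG300 + vehicle and CUG10 + vehicle. Both values below 1 thus came from the CUG10 + vehicle library.

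The same library held the lower value for exons of the nucleoside transporter Slc29a1 (0.889), the mitochondrial glycine carrier Slc25a38 (0.897) and the mitochondrial citrate carrier Slc25a1 (0.925). The CUG300 + vehicle library held it for the Golgi UDP-galactose transporter Slc35a2 (0.871), the amino acid transporter Slc7a10 (0.874), Slc35c2 of the nucleotide sugar family (0.907) and Slc7a6os (0.920). In CUG300 + CWG-cPIP, the lower values were those of the mitochondrial iron carrier Slc25a28 (0.870) and of Slc9a3r2 (0.928). For each of these 9 events the PSI was 1.000 in the other libraries, and none was called.

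Alternating events, with at least 5 inclusion and 5 skipping reads over the 3 libraries, were 20 in 14 genes, a choice made after their values were seen, and 18 of them are plotted. Among the calcium exchangers, the 18-nt exon of Slc8a2 had 83 and 8 reads in CUG300 + CWG-cPIP, 14 and 2 in CUG300 + vehicle, and 31 and 0 in CUG10 + vehicle. Its PSI was 0.893 (0.802 to 0.952), 0.849 (0.564 to 0.981) and 1.000 (0.864 to 1.000), and the intervals overlapped. A 279-nt exon of the same gene was included at 0.970, 0.976 and 0.954, with 468 and 3, 192 and 1, and 492 and 5 reads.

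The 18-nt exon of Slc8a3 was mostly skipped, with 4 and 11 reads in CUG300 + CWG-cPIP and 0 and 4 in CUG10 + vehicle (PSI 0.226 and 0.000), and no counts were listed for CUG300 + vehicle. Its PSI was thus far below that of the 18-nt exon of Slc8a2 in the same 2 libraries. Slc8a1 listed 7 events, which overlap and share reads.

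Slc8a1 listed 2 mutually exclusive pairs. In the pair of 107 nt and 104 nt, the 107-nt exon was used more than the unannotated 104-nt exon, at a share of 0.865 (13 and 2 reads) in CUG300 + CWG-cPIP, 0.831 (5 and 1) in CUG300 + vehicle and 0.932 (14 and 1) in CUG10 + vehicle. In the pair of 21 nt and 104 nt, the 104-nt exon had 2 of 3 reads, 1 of 1 and 0 of 2 in the same libraries. The 69-nt cassette exon had a PSI of 0.280, 0.206 and 0.341 in the same order, and the 21-nt cassette exon 0.163, 0.000 and 0.238. Each of the cassette values rests on 3 to 7 reads, and no order among the libraries can be read from them.

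Slc24a2, the potassium-dependent sodium-calcium exchanger NCKX2 of neurons, listed 3 coding exons, of which those of 51 nt and 186 nt had at least 5 reads of each form. The 51-nt exon (chr4:87049884-87049934) had 7 and 6 reads in CUG300 + CWG-cPIP, 2 and 0 in CUG300 + vehicle, and 13 and 3 in CUG10 + vehicle, for a PSI of 0.409, 1.000 and 0.720. The 186-nt exon had 21 and 7, 3 and 0, and 9 and 2 reads, for a PSI of 0.461, 1.000 and 0.562. With only 2 and 3 reads in CUG300 + vehicle, the values of 1.000 have intervals that reach down to 0.10 and 0.105.

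Slc4a10 encodes a sodium-coupled bicarbonate transporter of neurons. A 39-nt exon had a PSI of 0.887 in CUG300 + CWG-cPIP, 0.739 in CUG300 + vehicle and 0.891 in CUG10 + vehicle, from 26, 16 and 27 reads. A 90-nt coding exon was mostly skipped, at 0.194 in CUG300 + CWG-cPIP (8 and 15 reads) and 0.153 in CUG10 + vehicle (6 and 15 reads). At both exons CUG300 + CWG-cPIP and CUG10 + vehicle lay close together, within counting error.

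Slc38a10, an amino acid transporter family member, had an event with an unadjusted exact p below 0.05. Its 24-nt exon, printed above and named here after its values were seen, had 12 and 0 reads in CUG300 + CWG-cPIP, 2 and 2 in CUG300 + vehicle, and 3 and 3 in CUG10 + vehicle. The PSI was 1.000, 0.430 and 0.430, a difference of 0.570 (0.121 to 0.852) between CUG300 + CWG-cPIP and CUG10 + vehicle with an exact p of 0.0245, and an adjusted exact p of 1. It was below the minimum of 20 counts.

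Mitochondrial carriers held 5 of these events. Slc25a14, the brain mitochondrial carrier UCP5, used a 5' splice site that adds 9 nt at a PSI of 0.555 in CUG300 + CWG-cPIP (7 and 5 reads), 0.471 in CUG300 + vehicle (3 and 3) and 0.527 in CUG10 + vehicle (10 and 8). A 36-nt exon of Slc25a25, an ATP-magnesium/phosphate carrier, was at 0.206 (5 and 13 reads), 0.402 (2 and 2) and 0.335 (3 and 4) in the same order, and a 45-nt exon of Slc25a26, the S-adenosylmethionine carrier, at 0.685 (7 and 2), 0.651 (9 and 3) and 1.000 (14 and 0). Intervals overlapped for each.

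Slc25a44 had a 128-nt exon at a PSI of 0.786 in CUG300 + CWG-cPIP (40 and 4 reads), 0.801 in CUG300 + vehicle (11 and 1) and 0.846 in CUG10 + vehicle (30 and 2). Its 5' splice site that adds 46 nt was at 0.804, 1.000 and 0.742 in the same order. The 1.000 of CUG300 + vehicle rests on 3 reads, with an interval down to 0.203, and the intervals of the libraries overlapped at both events.

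Among the remaining families, Slc38a2 had a 116-nt exon at 0.833 in CUG300 + CWG-cPIP (64 and 5 reads), 0.881 in CUG300 + vehicle (19 and 1) and 0.881 in CUG10 + vehicle (38 and 2). The retained intron of Slc35a4, of the nucleotide sugar family, was at 0.437 (21 and 11 reads), 0.289 (2 and 2) and 0.222 (7 and 10) in the same order. Slc43a2, an amino acid transporter (LAT4), used the 208-nt exon of a mutually exclusive pair at 0.192 (4 and 10 reads) in CUG300 + CWG-cPIP and 0.165 (2 and 6) in CUG10 + vehicle, with a single read in CUG300 + vehicle. None of these differences was called.

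**Figure D2:**
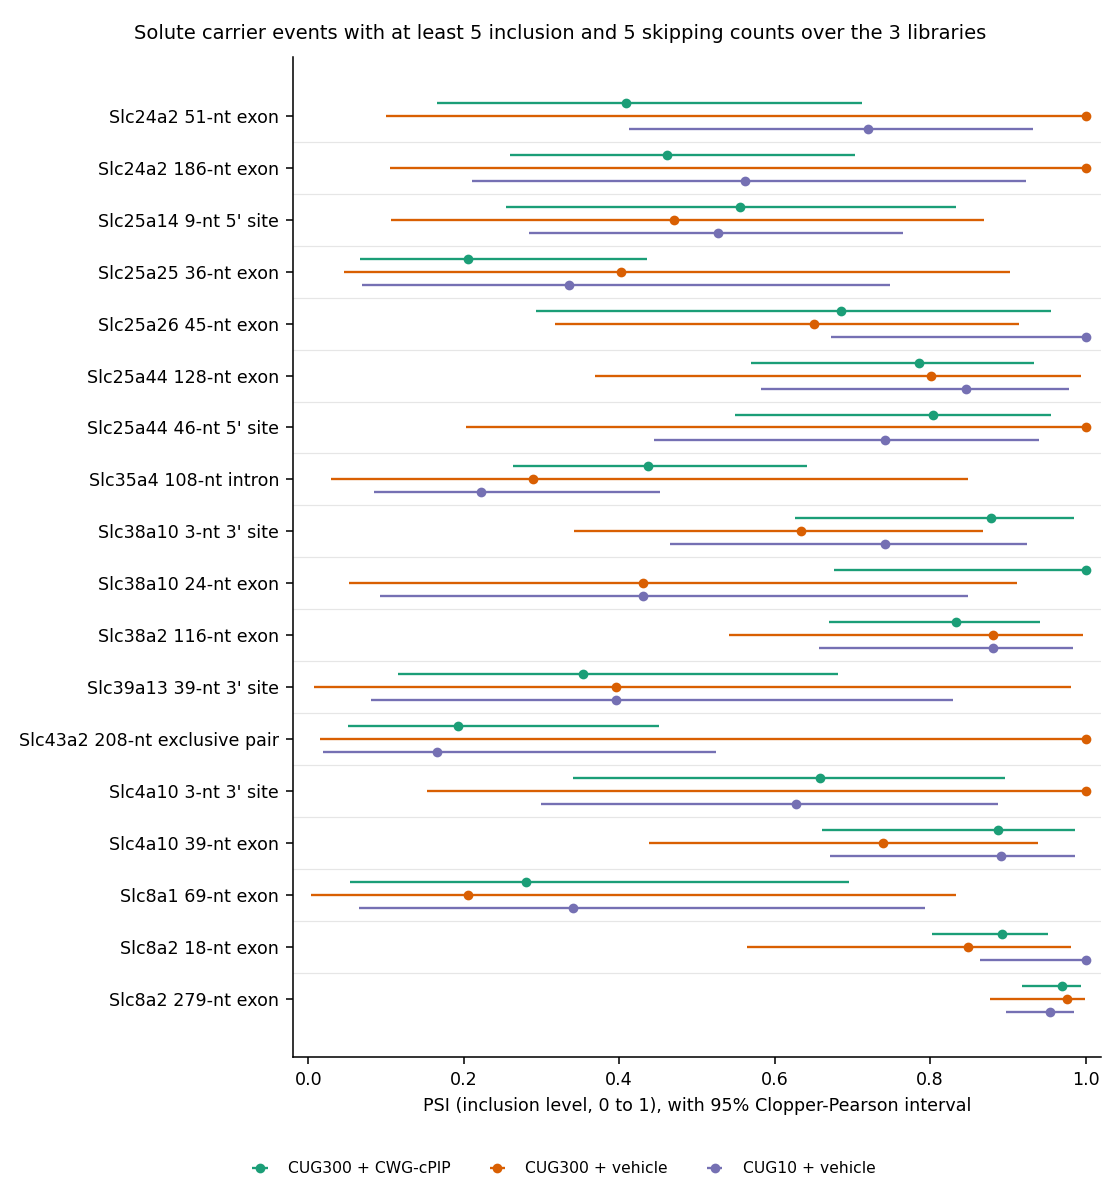
PSI (x axis, 0 to 1) of 18 solute carrier events with at least 5 reads of each form over the 3 libraries (y axis, gene and length of the alternative part). Points are single mice and lines 95% Clopper-Pearson intervals. The intervals of the 3 libraries overlap at each of the 18 events. Those of CUG300 + vehicle are often the widest, as at Slc24a2 with 2 to 3 reads.

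The event counts of a gene, summed over its events with counts in all 3 libraries, were also compared as CPM. This total measures reads at the listed events and not the whole transcript. Of 66 solute carrier genes with a total, 37 had at least 60 counts over the 3 libraries, as did 2653 genes of the series. The median log2 ratio over all these genes was not 0 but -0.48, 0.59 and 0.12 in the 3 pairs below. Counts of genes past 2-fold and the ratios of some genes are therefore also given relative to that median. With 1 mouse per group there is no test across mice, and ratios have exact conditional binomial intervals.

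In CUG300 + vehicle against CUG10 + vehicle, more solute carrier totals were lower than higher. At least 2-fold lower were 8 of 37 genes, against 27.9% of all genes, and at least 2-fold higher was 1 of 37, against 4.52%. Over the 37 genes the median log2 ratio was -0.62. Its order-statistic interval, -0.90 to -0.37, has genes and not mice as its units. Over all genes the median was -0.48. Relative to that median, 6 of 37 were 2-fold below it (all genes 13.3%) and 2 were 2-fold above it (11.2%), so the solute carriers as a group lay near the background.

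In CUG300 + CWG-cPIP against CUG300 + vehicle, 20 of 37 genes (54.1%) were at least 2-fold higher, against 36.4% of all genes, and 0 were at least 2-fold lower, against 7.31%. The median log2 ratio was 1.26 (0.82 to 1.50, with genes and not mice as units), against 0.59 over all genes. Relative to that median, 10 were 2-fold above it (all genes 20.7%) and 4 were 2-fold below it (18.4%). This comparison shares the CUG300 + vehicle library with the preceding one, so a low value in it lowers one ratio and raises the other.

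In CUG300 + CWG-cPIP against CUG10 + vehicle, 3 of 37 genes were at least 2-fold higher, against 6.82% of all genes, and 0 were at least 2-fold lower, against 0.980%. The median log2 ratio was 0.57 (0.36 to 0.64, with genes and not mice as units), against 0.12 over all genes. Above the median of all genes were 29 of the 37, and 8 were below it. By 2-fold relative to that median, 2 were above (all genes 4.41%) and 0 below (1.73%).

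**Figure D3:**
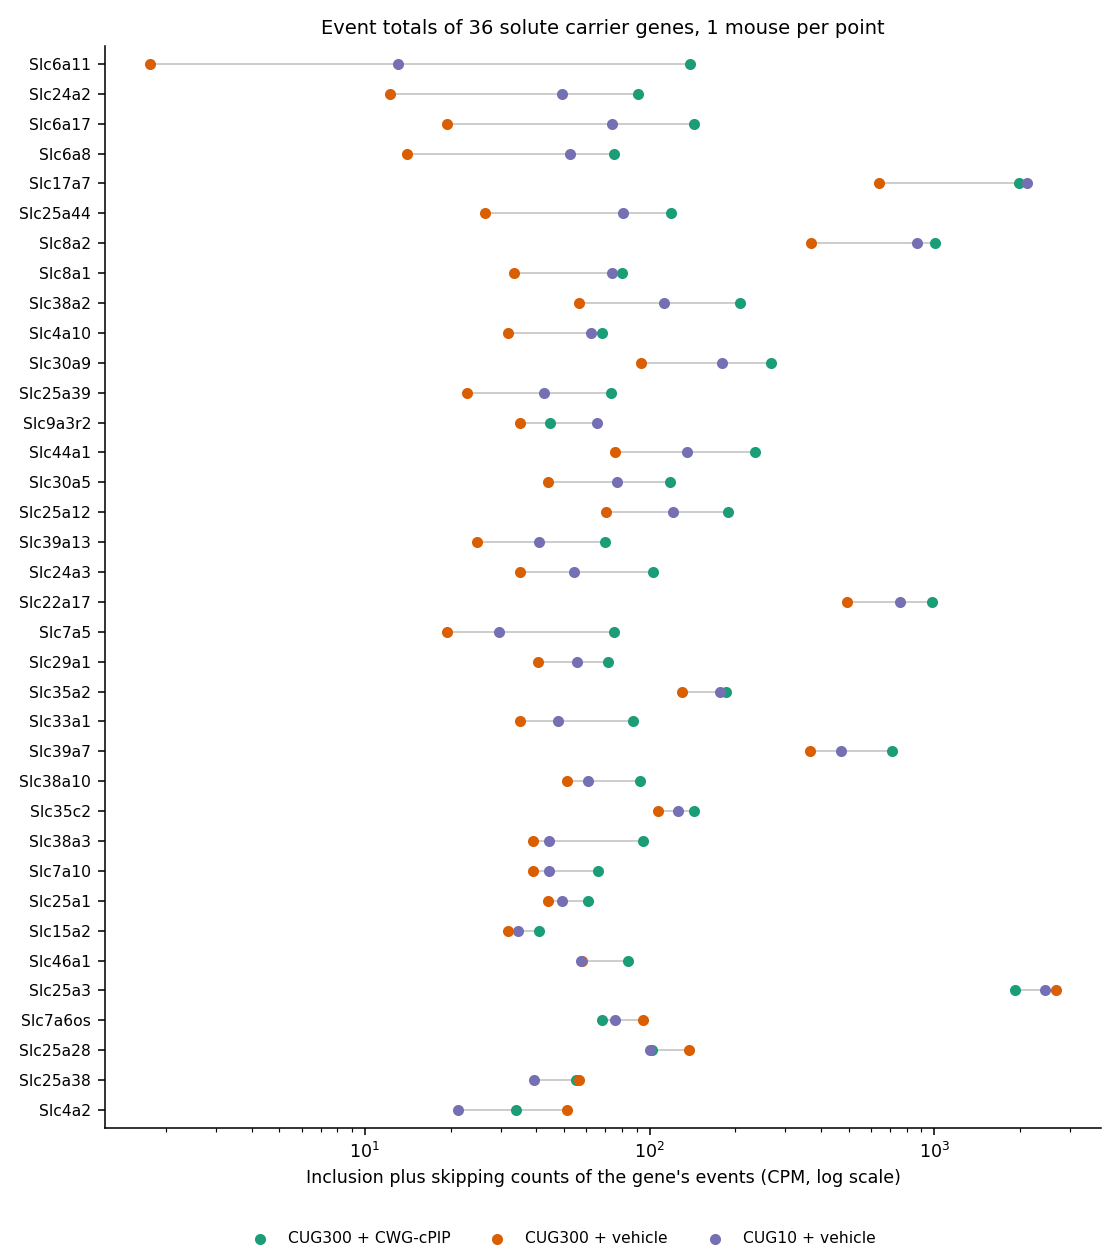
Event totals in CPM (x axis, log scale) of 36 solute carrier genes with at least 60 counts (y axis), ordered by the ratio of CUG300 + vehicle to CUG10 + vehicle. Each point is 1 mouse and grey lines join the lowest and highest value; CUG300 + vehicle is lowest for most genes, from Slc6a11 at 1.76 CPM, and highest for the genes at the foot of the plot, such as Slc4a2 at 51.1 CPM.

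Transmitter, creatine and vesicle carriers had the widest differences. Of these, 4 of 4 genes were at least 2-fold lower in CUG300 + vehicle than in CUG10 + vehicle (all genes 27.9%). In CUG300 + CWG-cPIP against CUG300 + vehicle, 4 of 4 were at least 2-fold higher (all genes 36.4%). Of the 4, only Slc17a7 passed the minimum of 60 counts without CUG300 + CWG-cPIP, the library where the others are high. The count of 4 is therefore no support for the ratios of the others. Slc17a7 had 1108 counts in CUG300 + CWG-cPIP, 362 in CUG300 + vehicle and 1292 in CUG10 + vehicle, or 1976, 638 and 2120 CPM. The CUG300 + vehicle value was the lowest, and the other values were close to each other. The ratio was 0.301 (0.267 to 0.338) for CUG300 + vehicle over CUG10 + vehicle, 3.10 (2.75 to 3.50) for CUG300 + CWG-cPIP over CUG300 + vehicle and 0.932 (0.860 to 1.01) for CUG300 + CWG-cPIP over CUG10 + vehicle. Relative to the medians of all genes, these were log2 differences of -1.25, 1.04 and -0.22.

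Slc6a11, the GABA transporter GAT-3 of astrocytes, had 78 counts in CUG300 + CWG-cPIP, 1 in CUG300 + vehicle and 8 in CUG10 + vehicle. The ratio of CUG300 + CWG-cPIP to CUG10 + vehicle was 10.6 (5.12 to 25.4), the highest of the 37 genes, and that to CUG300 + vehicle was 79.0 (13.8 to 3159), from a single read. The total comes from 1 event. It passed the minimum of 60 counts only through CUG300 + CWG-cPIP, the library where it is high, so its ratios in the pairs with that library had to be wide and its place in the counts of genes past 2-fold is no support for them.

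Slc6a17, a vesicular transporter of neutral amino acids, had 80, 11 and 45 counts in CUG300 + CWG-cPIP, CUG300 + vehicle and CUG10 + vehicle. Slc6a8, the creatine transporter, had 42, 8 and 32 counts. Both were lowest in CUG300 + vehicle, with ratios to CUG10 + vehicle of 0.262 (0.122 to 0.515) and 0.268 (0.107 to 0.595).

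Calcium exchangers showed the same directions. Of these, 3 of 4 genes were at least 2-fold lower in CUG300 + vehicle than in CUG10 + vehicle (all genes 27.9%). Against CUG300 + vehicle, 4 of 4 were at least 2-fold higher in CUG300 + CWG-cPIP (all genes 36.4%). Slc24a2 and Slc24a3 passed the minimum of 60 counts only through CUG300 + CWG-cPIP, the library where they are high. Their place among the 4 is therefore no support for their ratios. Slc8a2 had 562 counts (1002 CPM) in CUG300 + CWG-cPIP, 209 (368 CPM) in CUG300 + vehicle and 528 (866 CPM) in CUG10 + vehicle. Its ratios were 0.425 (0.36 to 0.5) for CUG300 + vehicle over CUG10 + vehicle and 2.72 (2.32 to 3.21) for CUG300 + CWG-cPIP over CUG300 + vehicle, log2 differences of -0.75 and 0.85 from the medians of all genes. Slc24a2 had 51, 7 and 30 counts and Slc8a1 45, 19 and 45 counts in CUG300 + CWG-cPIP, CUG300 + vehicle and CUG10 + vehicle.

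Slc24a3, the exchanger NCKX3, had 58, 20 and 33 counts, with a ratio of 0.651 (0.354 to 1.17) for CUG300 + vehicle over CUG10 + vehicle that did not reach 2-fold. For the 4 calcium exchangers the median log2 ratio was -1.19, 1.50 and 0.55 in the 3 pairs. Between CUG300 + CWG-cPIP and CUG10 + vehicle, the log2 ratio lay between 0.12 for Slc8a1 and 0.93 for Slc24a3. The interval of the ratio excluded 1 for Slc24a2 (1.15 to 3.01), Slc24a3 (1.23 to 3.02) and Slc8a2 (1.03 to 1.31). Relative to the median of all genes, the log2 differences of these genes were 0.76, 0.81 and 0.09, so Slc8a2 lay near the background.

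Amino acid transporters had no gene past 2-fold between CUG300 + vehicle and CUG10 + vehicle (all genes 27.9% lower and 4.52% higher). At least 2-fold higher in CUG300 + CWG-cPIP than in CUG300 + vehicle were 3 of 5 (all genes 36.4%). Slc7a5, the large neutral amino acid transporter LAT1, had 42, 11 and 18 counts in CUG300 + CWG-cPIP, CUG300 + vehicle and CUG10 + vehicle, and Slc38a3, a glutamine transporter (SNAT3), had 53, 22 and 27. Both were also at least 2-fold higher in CUG300 + CWG-cPIP than in CUG10 + vehicle, at 2.54 (1.43 to 4.68) and 2.13 (1.32 to 3.53). With Slc6a11 they make up the 3 such genes of 37 (all genes 6.82%). Slc7a5, with 71 counts in all, and Slc38a3, with 102, also passed the minimum of 60 only through CUG300 + CWG-cPIP. In that library both are high, so their place in these counts of genes is no support for their ratios. Slc38a2, the system A transporter SNAT2, had 116, 32 and 68 counts.

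Zinc carriers were similar, with 0 of 4 past 2-fold between CUG300 + vehicle and CUG10 + vehicle (all genes 27.9% lower and 4.52% higher). At least 2-fold higher in CUG300 + CWG-cPIP than in CUG300 + vehicle were 3 of 4 (all genes 36.4%). Among these, Slc39a13 passed the minimum of 60 counts only through CUG300 + CWG-cPIP, the library where it is high. Its place among the 3 is therefore no support for its ratio. Slc30a9 had 150, 53 and 110 counts, and Slc30a5, a zinc transporter of the secretory pathway, 66, 25 and 47, in CUG300 + CWG-cPIP, CUG300 + vehicle and CUG10 + vehicle. Slc39a7 had 400, 208 and 288 counts, a log2 ratio of -0.37 between CUG300 + vehicle and CUG10 + vehicle that is 0.12 above the median of all genes, so its direction depends on the scale.

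Mitochondrial carriers were mixed, with 1 of 8 at least 2-fold lower in CUG300 + vehicle than in CUG10 + vehicle (all genes 27.9%). At least 2-fold higher in CUG300 + CWG-cPIP than in CUG300 + vehicle were 3 of 8, near the share of all genes (36.4%). Slc25a3, the deepest solute carrier, had 1073, 1517 and 1493 counts, or 1914, 2672 and 2449 CPM, in CUG300 + CWG-cPIP, CUG300 + vehicle and CUG10 + vehicle. Unlike most members it was lowest in CUG300 + CWG-cPIP, at 0.716 (0.662 to 0.775) of CUG300 + vehicle and 0.781 (0.722 to 0.846) of CUG10 + vehicle. Slc25a44, a carrier of branched-chain amino acids, had 67, 15 and 49 counts, and the aspartate-glutamate carrier Slc25a12 had 106, 40 and 74.

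Slc25a28 had 57, 78 and 61 counts and Slc25a38 had 31, 32 and 24, so neither was lowest in CUG300 + vehicle. Slc25a39, which brings glutathione into mitochondria, had 41, 13 and 26 counts. It passed the minimum of 60 counts only through CUG300 + CWG-cPIP, the library where it is high. Its place among the genes past 2-fold is therefore no support for its ratio.

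Among carriers of organic ions, vitamins and other substrates, 2 of 6 were at least 2-fold higher in CUG300 + CWG-cPIP than in CUG300 + vehicle, near the share of all genes (36.4%). These were the choline transporter-like gene Slc44a1, with 131, 43 and 82 counts in CUG300 + CWG-cPIP, CUG300 + vehicle and CUG10 + vehicle, and the acetyl-CoA transporter Slc33a1, with 49, 20 and 29. Slc33a1 passed the minimum of 60 counts only through CUG300 + CWG-cPIP, the library where it is high. Its place among the 2 is therefore no support for its ratio. Slc22a17 had 551, 280 and 461 counts, just under 2-fold at 1.99 (1.72 to 2.31). Nucleotide sugar carriers did not pass 2-fold in any pair (0 of 2 genes), too few to set apart from all genes. Of all genes, 4.52% were higher and 27.9% lower in CUG300 + vehicle against CUG10 + vehicle. For CUG300 + CWG-cPIP the shares were 36.4% and 7.31% against CUG300 + vehicle, and 6.82% and 0.980% against CUG10 + vehicle. Slc35a2 had 104, 74 and 108 counts.

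Slc4a2, the anion exchanger AE2, was the only one of the 37 genes at least 2-fold higher in CUG300 + vehicle than in CUG10 + vehicle. It had 19 counts in CUG300 + CWG-cPIP, 29 in CUG300 + vehicle and 13 in CUG10 + vehicle, a ratio of 2.40 (1.21 to 5.02). Its total of 61 counts passed the minimum of 60 only through CUG300 + vehicle, the library where it is high. Its place as the only such gene is therefore no support for the ratio. Slc4a10, of the same family, was lower in CUG300 + vehicle than in CUG10 + vehicle, with 38, 18 and 38 counts and a ratio of 0.509 (0.273 to 0.913). Slc7a6os had 38, 54 and 46 counts and Slc9a3r2 had 25, 20 and 40.

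**Figure D4:**
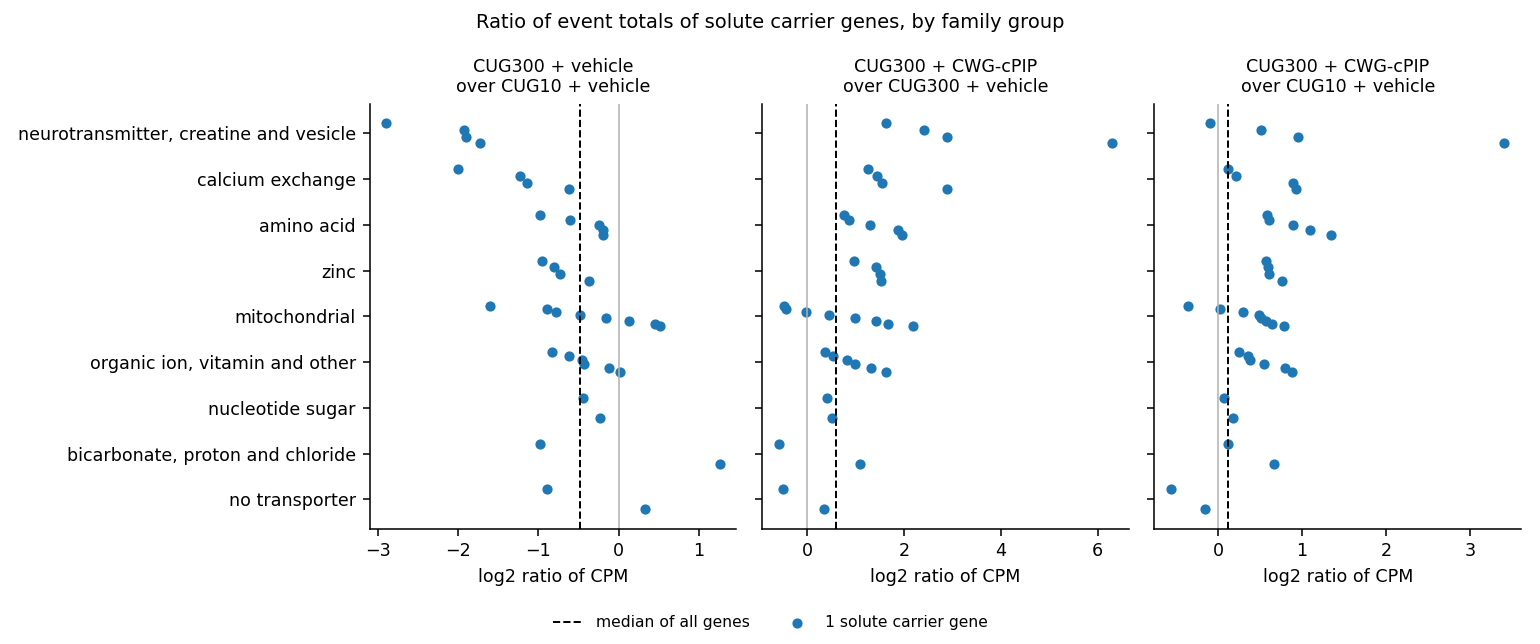
log2 ratio of event totals (x axis, CPM) for the 37 solute carrier genes (points) by family group (y axis), in each of the 3 pairs of libraries. The dashed line is the median of all 2653 genes (-0.48, 0.59 and 0.12), the grey line is 0, and transmitter carriers and calcium exchangers lie left of the dashed line in the first panel and right of it in the second.

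Solute carriers linked to cell types were read beside the markers. Neuronal carriers (6 of 12 measured: Slc17a7, Slc8a1, Slc8a2, Slc6a17, Slc24a2 and Slc4a10) summed to 3360 CPM in CUG300 + CWG-cPIP, 1103 in CUG300 + vehicle and 3245 in CUG10 + vehicle. All 6 were lower in CUG300 + vehicle than in CUG10 + vehicle, with a median ratio of 0.363, and the 7 neuron markers were all lower too, with a median ratio of 0.358. The part of the neuron content in these carrier totals was not tested.

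The 2 measured choroid plexus carriers went the other way. Slc16a8, a monocarboxylate transporter (MCT3), was below the minimum of 60 counts, with 6 counts in CUG300 + CWG-cPIP, 39 in CUG300 + vehicle and 1 in CUG10 + vehicle. With Slc4a2 it made the 2 of 13 listed genes measured, at a summed 44.6, 120 and 23 CPM, both highest in CUG300 + vehicle, as were the 3 measured choroid plexus markers. Slc22a8, an organic anion transporter (OAT3), was not on this list, was also below the minimum and is named after its values were seen. It had 20, 2 and 24 counts and was lowest in CUG300 + vehicle, opposite to the 2 listed carriers.

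Astrocyte carriers (3 of 8: Slc6a11, Slc7a10 and the peptide transporter Slc15a2) summed to 246, 72.2 and 91.9 CPM in CUG300 + CWG-cPIP, CUG300 + vehicle and CUG10 + vehicle, while the 2 measured astrocyte markers differed, with Gfap at 961, 1402 and 518 CPM and Fgfr3 at 273, 47.6 and 130 CPM. The sum follows Slc6a11, since Slc7a10 had 37, 22 and 27 counts and Slc15a2 had 23, 18 and 21. For oligodendrocytes 1 of 3 listed carriers was measured (Slc44a1), for endothelium 1 of 8 (Slc7a5) and for microglia and myeloid cells 0 of 7.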

How the data were processed

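The authors ran rMATS on each pair of the 3 libraries to count the reads of alternative splicing events. Per the submitters' processing notes, Trim Galore 0.6.6, STAR 2.7.9a and RSEM 1.3.3 were run on build mm10, and DESeq2 1.36.0 served the gene expression of the authors, not analysed here. The authors deposited 15 tables (5 event types in 3 pairs) of inclusion and skipping counts, PSI as a fraction and form lengths in nt. Columns of the authors' own comparisons (p-values, FDR and PSI differences) were deposited too and not used. The first count column of a table was taken as its own sample and the second as the next, and the counts of a shared library agreed between tables in 14737 of 14737 comparisons. The skipping form of 74 nt in skipped exons differs from the read length of the methods, which was not resolved. Recomputed from the counts, PSI deviated by at most 0.0005 from the values the authors deposited.

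Members and lists were chosen with earlier results of these data known. Named events were those called in any pair and the 12 genes of widest PSI difference where all 3 libraries had at least 20 counts. Named totals were the 10 highest and 10 lowest ratios in each pair among genes with at least 60 counts, and the cell type lists. Some of what this rule takes in is not reported here by name and stays in the counts. PSI has Clopper-Pearson intervals, PSI differences have Newcombe intervals from Wilson bounds carried through the length normalisation, and ratios of totals have exact conditional binomial intervals. Fisher's exact test was adjusted over the whole table of an event type and pair. The procedures were tested on simulated data. All 74 genes matched GENCODE M21. Python 3.11.15, numpy 2.4.6, pandas 2.3.3, scipy 1.17.1 and matplotlib 3.10.9 were used. Alternatives varied the count minimum, size threshold, adjustment, scaling, length normalisation and choice of events.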

Additional observations from a re-analysis of the deposited data

How the results depend on the processing

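No paired analysis was possible because each group is 1 mouse. Without a count minimum the interval rule called 2 solute carrier events in CUG300 + vehicle against CUG10 + vehicle, 5 in CUG300 + CWG-cPIP against CUG300 + vehicle and 3 in CUG300 + CWG-cPIP against CUG10 + vehicle, and with a minimum of 10 counts 1 in the second pair, the exon of Slc6a17. The share of all events called was not computed for these settings of the interval rule, so these counts have no background. Both calls of the first pair rested on 1 read in CUG300 + vehicle. Without adjustment the exact test called 2 in the last pair. Scaling by the median ratio over genes moved the median log2 ratio to -0.09, 0.51 and 0.34 in the 3 pairs (all genes 0.05, -0.16 and -0.10), with 2 genes 2-fold higher in the first pair (all genes 12%), and 7 higher (16.7%) and 4 lower (22.4%) in the second. With at least 20 counts, 56 genes had totals, of which 2 were higher (all genes 5.19%) and 17 lower (30.8%) in the first pair, 32 (41.6%) and 1 (6.71%) in the second, and 10 (11.9%) and 1 (1.51%) in the last. With no minimum, 66 genes gave 3 (6.79%) and 20 (31.3%), 37 (43.6%) and 1 (7%), and 12 (15.5%) and 2 (2.77%). Over events listed in all 3 pairs, 12 genes gave 0 higher (5.36%) and 5 lower (23.6%) in the first pair, 7 higher (32.9%) in the second, with a median of 1.50 (all genes 0.44), and 1 higher (6.21%) in the last. Fewer genes or shallower events were measured in these last settings. Of the other values for results that answer a comparison, 47 stayed within 1.5 times the main count or within the interval of the main median. The 25 PSI differences of single events, taken from raw counts, stayed within the main intervals but were smaller. That of Slc46a1 went from 0.269 to 0.029 in CUG300 + vehicle against CUG10 + vehicle. Counts and these differences could not reverse by their construction, so only a median could, and no median reversed. Depth limits the PSI comparisons, since a median of 6 counts per event in CUG300 + vehicle leaves most differences undetectable.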
